A study of Physcomitrium patens with 24 samples.

Results

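The sites described here are stretches of moss RNA that stayed protected from RNase V1, a nuclease that cuts paired RNA (dsRNase), after 60 min and after 0 min of abscisic acid (ABA). They were chosen by name: a site was kept when its entry in the 60 min or 0 min list named a call from dsRNase replicate 1 or 2 of that time. The rule kept 95379 sites, 45380 of 47102 at 60 min and 49999 of 52248 at 0 min, of 147131 sites in the 3 lists of the series (the list at 30 min holds the other 47781). Entries naming the single-strand nuclease RNaseONE (ssRNase) alone were left out.

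The study applied protein interaction profile sequencing (PIP-seq) to cultures of protonema, the thread-like young tissue of Physcomitrium patens, in 24 libraries. Tissue 10 days old was sonicated, kept in liquid medium for 3 days and crosslinked with formaldehyde, per the labels. The 60 min group is protonema collected after 60 min with ABA, and the 0 min group is labelled as 0 min of ABA, with methanol, the solvent, given to controls. The series' design text gives 10 µM ABA, whereas 10 mM stands in the protocol, and these were not reconciled here. Each time has 2 numbered replicates, and each replicate gave a dsRNase library digested with proteins on the RNA and one digested after proteinase K had removed them, both with 2.5 U/ml of RNase V1. These 8 libraries gave 4 call sets, 2 per time. The labels do not say that replicates were separate cultures, so a p-value here reflects the spread of these samples only, possibly a technical one. With no ABA-free culture at 60 min among the labels, ABA and elapsed time cannot be told apart.

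In PIP-seq, RNA covered by a bound protein survives a nuclease that would otherwise cut it, and comparison with protein-free RNA marks the covered stretch. RNase V1 reads out protection within base-paired RNA such as stems. ABA is the hormone with which plants answer drought and osmotic stress. Cells sense it through soluble receptors that, once ABA is bound, block protein phosphatases and so release protein kinases, and in mosses this pathway prepares the tissue for drying and freezing. RNA-binding proteins act in the splicing, stability and translation of the transcripts that respond.

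The dsRNase call sets held similar numbers of calls at both times. At 60 min replicates 1 and 2 held 38815 and 36283 calls, against 37580 and 43653 at 0 min. Replicate 2 of 0 min was highest and the sets of the times overlapped. The means were 37549 ± 1790 at 60 min and 40616.5 ± 4294 at 0 min (SD, n = 2 each), with p = 0.667 by an exact two-sided permutation test. The smallest p that 2 sets against 2 allow is 0.333, so no difference between sets could pass 0.05. The lists carry no read counts, so the depth behind each set is unknown.

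Replicate 2 of 0 min stood apart by strand. The plus strand took 54.1% and 52.7% of calls in the 60 min sets, against 55.7% and 46.3% in the 0 min sets. Replicate 2 of 0 min had 23444 calls on the minus strand, while the other 3 sets had 16643 to 17812. Among sites without a call of the other 0 min dsRNase set, this set had 9103 on the minus strand and 4986 on the plus. The same counts for replicate 1 of 0 min were 3475 and 7181. Counts per region were therefore scaled per set and strand, and results that move without replicate 2 of 0 min are given with the value.

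Median site widths were higher in both 60 min sets. The median width of sites holding a call was 43 and 44 nt in the 60 min sets, against 41 and 38 nt in the 0 min sets. Both 60 min sets lay above both 0 min sets, by 4 nt on average (exact permutation p = 0.333, the smallest possible, n = 2 each). Sites called in both replicates, 53.7% of the 60 min list and 50.5% of the 0 min list, entered both sets of their time. The 2 medians of a time are thus not independent, and the p-value does not allow for this. Sites of 100 nt or more made up 11.5% and 12.9% at 60 min, against 10.4% and 9.43% at 0 min, again without overlap. The total length covered was nearly the same, at 2214 and 2017 kb in the 60 min sets, against 2092 and 2140 kb in the 0 min sets. Sites that only 1 dsRNase set of a time supported were narrow at both times, with medians of 33 and 28 nt at 60 min, against 32 and 27 nt at 0 min. The sets of a time share none of these sites, and here the times overlapped (exact permutation p = 0.667).

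**Figure D1:**
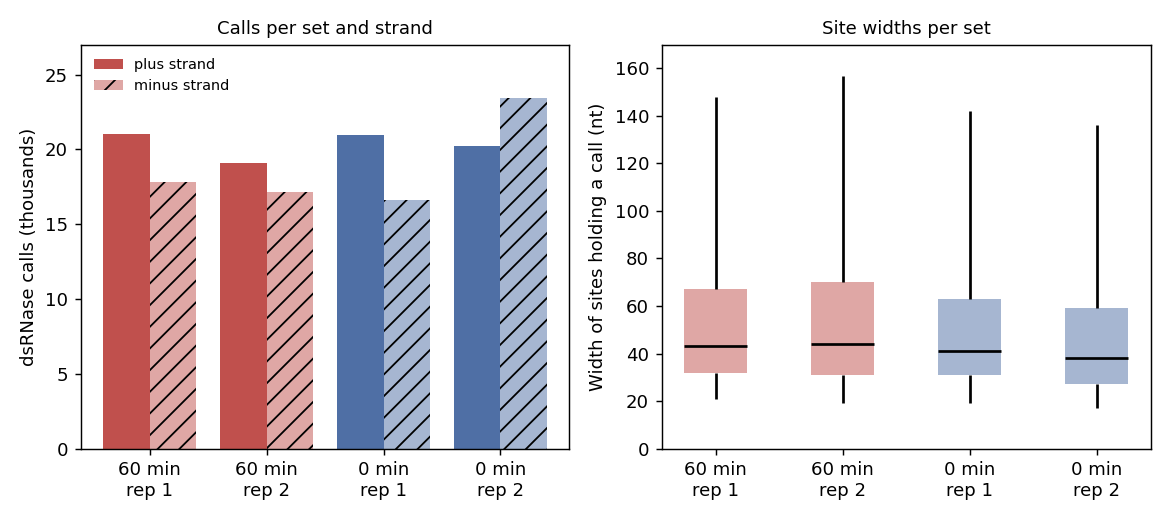
Left, dsRNase calls per call set (axis in units of 1000), split by strand (solid bars plus strand, hatched bars minus strand). Right, width in nt of the sites holding a call of each set (line median, box quartiles, whiskers 5th to 95th percentile). The minus strand is the taller bar only in replicate 2 of 0 min, and the medians are 43 and 44 nt at 60 min and 41 and 38 nt at 0 min.

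Most sites of one time had a counterpart at the other, and the share depended on width differently at the 2 times. At least 1 nt of a 0 min site lay on the same strand for 64.7% of the 60 min sites (64.3 to 65.2%, 95% Wilson interval), and the reverse held for 57.5% of the 0 min sites (57.0 to 57.9%). Sites of 100 nt or more at 60 min were overlapped in 81.5% of cases, against 96.3% for such sites at 0 min. The 0 min share was the higher one among wide sites. For sites under 30 nt the order turned, with 56.2% at 60 min and 37.5% at 0 min.

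The replicates supporting a site went with its recurrence. Sites called in both replicates made up 53.7% of the 60 min list and 50.5% of the 0 min list. Of these, 71.9% were overlapped at the other time for 60 min and 77.5% for 0 min. Sites of replicate 1 alone and replicate 2 alone were overlapped in 55.2% and 58.3% of cases at 60 min, against 36.5% and 37.5% at 0 min. Within 1 width class, 30 to 49 nt, sites of a single replicate were overlapped in 57.1% of cases at 60 min and 41.5% at 0 min, while those of both replicates differed less, at 67.9% and 69.7%. Intervals cover counting error alone, and sites of 1 list are not independent samples.

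Joining sites of both lists that overlapped on a strand gave 64425 loci. The 60 min replicates shared 54.1% of the loci called in either, against 50.7% for the 0 min replicates. Sets of different times shared 36.6% to 38.0%, below both replicate pairs. The pairing by time was the highest of the 3 possible pairings (p = 0.333 by an exact one-sided permutation test, the smallest it allows). Same-numbered sets shared 37.4% and crossed numbers 37.3%, so replicate numbers made no visible pairing.

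Gains were loci called in both 60 min sets and in neither 0 min set, and losses the reverse. Of all loci, 6842 (10.6%) were gained and 5694 (8.84%) lost, while 13317 (20.7%) were constant, that is, called in all 4 sets. A further 9158 loci were called in 1 set of 60 min alone and 15575 in 1 set of 0 min alone. With a set left out, 1 call rather than 2 decides at its time, which raises the count of that time by construction. Without replicate 1 or 2 of 60 min there were 10327 or 12515 gains and 9031 or 7888 losses. Without replicate 1 or 2 of 0 min there were 8131 or 8742 gains and 14505 or 12458 losses.

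Gained loci were wider than lost ones by the median. Their median width was 48 nt (quartiles 35 and 70), against 38 nt (30 and 51) for lost loci, and constant loci had 72 nt (48 and 114). At 100 nt or more lay 11.3% of gained loci, 2.27% of lost loci and 31.4% of constant loci. All loci had a median of 38 nt, the same as lost loci, and 8.75% of them reached 100 nt, a share nearer to that of gained loci. The authors' score, used only as a rank within a list, ran in the same order, with a median percentile of 66.2 in the 60 min list for gained loci and 59.3 in the 0 min list for lost loci. Constant loci had median percentiles of 77.7 at 60 min and 83.7 at 0 min.

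**Figure D2:**
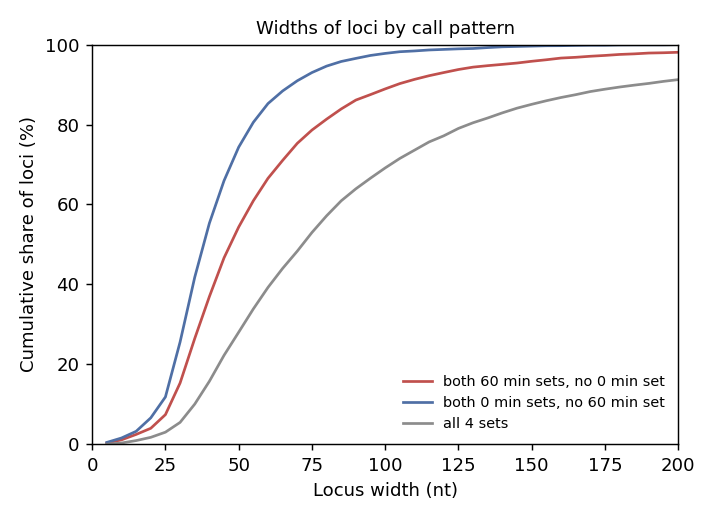
Cumulative share of loci (%) by width (nt) for loci called in both 60 min sets and no 0 min set, in both 0 min sets and no 60 min set, and in all 4 sets. The curve of lost loci (median 38 nt) lies left of that of gained loci (48 nt), and constant loci (72 nt) lie furthest right.

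More gained than lost loci lay together in one region. Same-strand loci with gaps under 500 nt were grouped as regions. They take the place of genes, as no gene annotation in the lists' coordinates was used here. Gained loci fell in 2522 regions and lost loci in 3748. A single gained locus was found in 55.4% of the regions with any gain, and a single lost locus in 73.5% of the regions with any loss. Regions with 5 or more gained loci numbered 414 and held 3568 gained loci (52.1%), against 122 regions with 5 or more lost loci, which held 834 (14.6%). The most in a region was 31 gained and 15 lost. These are counts of loci that share regions, and no test was made.

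A larger share of gained than of lost loci lay in regions called at 1 time alone. Of the gained loci, 3604 (52.7%) lay in regions with no dsRNase call at 0 min, and 2150 lost loci (37.8%) lay in regions with no call at 60 min. Over all loci these shares were 12.0% and 14.6%. All loci include constant loci and those of the opposite class, which by definition cannot lie in such regions. Part of the distance to the shares of all loci is thus fixed in advance. Loci called in 1 set alone did not show the order of gained above lost loci, at 45.0% for 60 min sets and 46.4% for 0 min sets. Regions that also held a constant locus had 28.0% of the gained and 46.0% of the lost loci. There the nearest constant locus was a median of 255.5 nt from a gained locus and 162 nt from a lost one. Within regions of at least 1000 nt, cut into 3 equal parts along the strand, gained loci lay in the 5′ part and the 3′ part in 35.5% of cases each, and the rest in the middle. Lost loci were spread as 34.0%, 29.4% and 36.6% in 5′ to 3′ order, and constant loci as 35.8%, 30.8% and 33.4%, and all loci as 34.5%, 29.4% and 36.0%. The classes were thus placed much as all loci were.

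Other call sets, whose names did not define the classes, were compared at the same loci. The ssRNase shares are not independent of the classes, since a list merges calls of both RNases into sites. A gained locus holds no 0 min site with a dsRNase name. Only the 2249 sites of 0 min naming ssRNase alone could overlap it at 0 min. Likewise only 1722 such sites of 60 min could overlap a lost locus at 60 min. The low shares there are thus partly fixed by the class rule. An ssRNase call of either replicate overlapped 1194 gained loci (17.5%) at 60 min, against 88 (1.29%) at 0 min. For lost loci the numbers were 191 (3.35%) at 60 min and 764 (13.4%) at 0 min, and for constant loci 4131 (31.0%) and 5064 (38.0%). Over all loci the shares were 11.6% at 60 min and 14.1% at 0 min, so lost loci were near the share of all loci at 0 min. The dsRNase sets at 30 min, which the classes did not use either, both called 48.3% of gained loci and 18.4% of lost loci. Neither 30 min set called 24.7% of gained and 48.8% of lost loci, and both called 78.4% of constant loci. Both 30 min sets called 34.0% of all loci and 18.5% of loci in none of the 3 classes, a share like that of the lost loci. The ssRNase and dsRNase libraries of a replicate came from 1 divided sample, so these readouts share their RNA with the calls.

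Loci called at both times were slightly narrower at 60 min, and most of their ends lay close together. Of the constant loci, 10790 held a single site in each list, with median widths of 54 nt at 60 min and 56 nt at 0 min, a small difference. The median of the differences was -1 nt (quartiles -8 and 3), and 36.9% of these loci were wider and 52.5% narrower at 60 min. The 5′ end was at exactly the same base in 26.3% and the 3′ end in 30.0%. The 5′ end lay within 5 nt of its position at the other time in 70.7% of the loci and the 3′ end in 69.7%. Of all constant loci, 1407 were split into more sites at 60 min than at 0 min and 949 into fewer. A site's width is that of the merged entry, which can include ssRNase calls, and the lists give no width per call or replicate, so no test was made.

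The width of constant loci went with the change of the region around them. In regions with more called loci at 60 min by the region test given next, 512 such loci had a median width of 70 nt at 60 min and 43 nt at 0 min, and 92.2% of them were wider at 60 min (median difference 21 nt). In regions with fewer called loci, 530 had 45 nt at 60 min and 60.5 nt at 0 min, and 82.5% were narrower (median difference -9 nt). In regions not past the test, 8241 had 56 nt at 60 min and 59 nt at 0 min. Widths and called loci come from the same lists, so this is a description, not a second line of evidence.

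**Figure D3:**
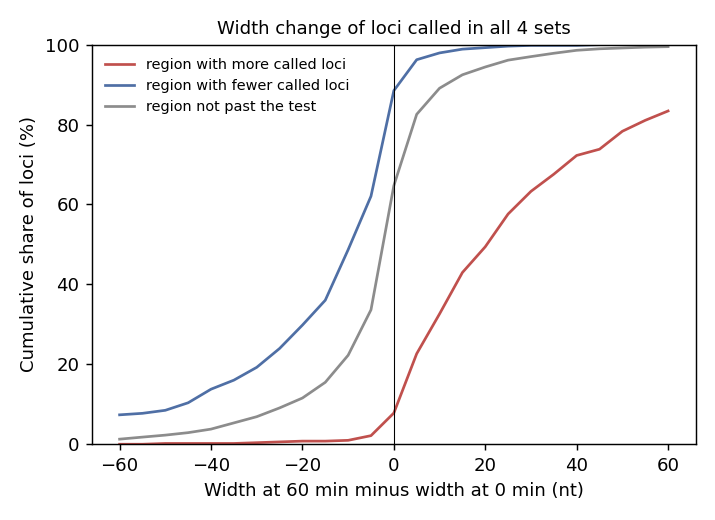
Cumulative share (%) of constant loci with 1 site per list against the width at 60 min minus the width at 0 min (nt), by the result of the test of their region. Loci in regions with more called loci lie right of 0 (median 21 nt), those in regions with fewer lie left of it (median -9 nt), and those in regions not past the test centre near 0 (median -1 nt).

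Among tested regions, those with more called loci at 60 min outnumbered those with fewer, partly through regions without a call at 1 time. The 64425 loci formed 19656 regions, of which 9486 held 1 locus, and 4890 regions with a mean of at least 2 called loci over the 4 sets were tested (they hold 64.5% of all loci). By limma on scaled log2 counts, with Benjamini-Hochberg adjustment at 0.05 over the 4890, 875 regions (17.9%) had more called loci at 60 min and 509 (10.4%) had fewer. Of these, 361 and 86 had no call at the other time and passed the minimum only through the time where they were high. Regions called in both sets of the lower time numbered 352 and 306. At an unadjusted p under 0.05 stood 1854 regions (37.9%). By counts without scaling, and irrespective of the test, 1099 tested regions had more called loci in both 60 min sets than in either 0 min set. By the same counts 1517 had fewer in both. These do not compare directly with the scaled results. The median log2 change was 3.17 over the regions with more, -1.82 over those with fewer and -0.06 over all tested. Over regions called in both sets of the lower time, it was 1.56 for those with more and -1.35 for those with fewer. The lists hold no RNA levels, so more protection, more RNA per cell and more cells with the RNA cannot be told apart in any of these results.

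The order of rises and falls depended on what was counted. When covered nucleotides replaced called loci, 1040 regions had more and 1185 had fewer at 60 min. A site called in both replicates gave its merged width to both sets of its time. The sets are thus not independent in this count, and the test does not allow for it. At an unadjusted p under 0.05 by this limma fit stood 2615 regions, against 1854 by called loci. In the regions not past the main test, the covered length was 1336 kb at 60 min and 1531 kb at 0 min, and it was lower at 60 min in 71.2% of these regions. Regions with more called loci covered 588 kb at 60 min and 88.9 kb at 0 min, and those with fewer covered 85.7 kb and 269 kb. Without scaling, 526 regions had more and 382 fewer, and only 493 and 171 of them were among the 875 and 509. Without replicate 2 of 0 min, 910 had more and 556 fewer.

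**Figure D4:**
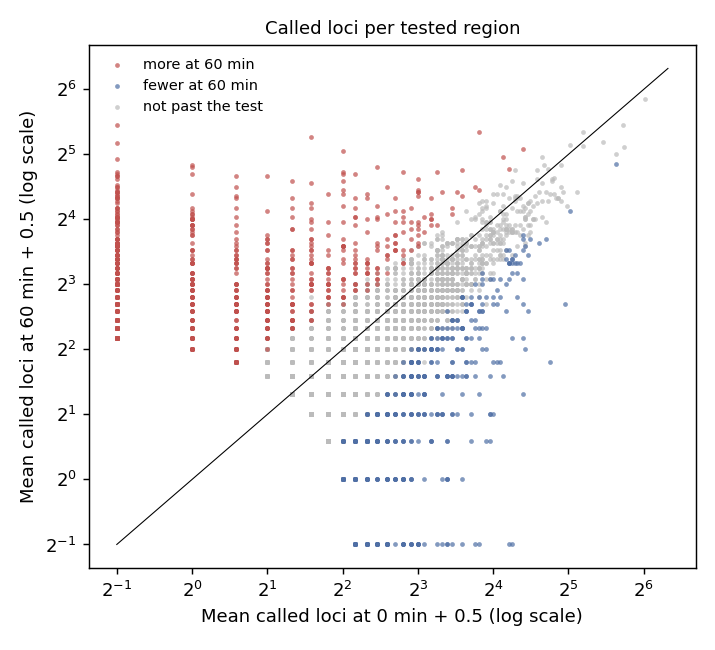
Mean called loci per tested region plus 0.5 at 60 min (vertical, log scale) against 0 min (horizontal, log scale), 1 point per region, coloured by the limma result. The column of points at the left edge holds regions with no call at 0 min, and the row at the bottom holds those with none at 60 min; the line marks equal values.

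Over all 19656 regions, tested or not, 3024 had a call at 60 min alone and 6571 at 0 min alone. With a call in both sets of that time these were 1437 and 1951, so more regions were called at 0 min alone by either count. Among tested regions the order was the opposite, with 361 of the 875 regions with more called loci lacking any at 0 min and 86 of the 509 with fewer lacking any at 60 min. A region with no call at 1 time passed the minimum only through its calls at the other, and 361 of 362 and 86 of 86 such regions were past the test, so these counts are a description and support nothing. Regions called in both sets of the lower time numbered 352 among those with more and 306 among those with fewer. The median span was 1505 nt for regions with more, 1452 nt for those with fewer and 1077 nt for all tested. Calls of the 30 min and ssRNase sets were counted here only where they overlapped a locus of the region. Of the 361 regions, 310 (85.9%) were called in both dsRNase sets of 30 min and 17 in neither. Of the 86 regions, 38 (44.2%) still had a call in both 30 min sets and 14 had none. An ssRNase call was present in 233 of the 361 at 60 min and in 3 at 0 min. For the 86 it was present in 0 at 60 min and in 48 at 0 min. At the time without a dsRNase call, only sites naming ssRNase alone could count. The low numbers there were thus partly fixed by the selection and are not an independent readout.

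Regions are named by position, since the lists give no gene, and the counts are called loci in replicates 1 and 2. For the 30 min and ssRNase sets, they count loci, built from 60 and 0 min sites, that such a call overlapped. Calls of those sets elsewhere in a region were not counted, so such counts do not compare directly with those of 60 and 0 min. Among regions without a call at 0 min, the region with the highest fitted rise was chr27:4598794-4606598 on the plus strand, 7805 nt long. It had 44 and 43 called loci at 60 min, against 0 and 0 at 0 min. Both 60 min sets were high and close to each other. This is at least 14.5-fold over a floor of 3 called loci per set (fitted log2 change 6.51 ± 0.32 SE, limma adjusted p = 2.72e-06). Here and below, regions with no call at 1 time passed the minimum only through the other time. Their p-values are therefore a description and support nothing. In the chromosome 27 region, sites covered 35.5% of the length at 60 min, and 31 loci counted as gained. Calls of the 30 min sets overlapped 14 and 11 of its loci.

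On chromosome 10 the region chr10:5028443-5034163 (plus strand) had 36 and 35 called loci at 60 min, against 0 and 0 at 0 min (at least 11.8-fold, limma adjusted p = 4.18e-06). Calls of the 30 min sets overlapped 36 and 40 of its loci, and its widest locus spanned 412 nt. On chromosome 17 the region chr17:5180833-5184883 (minus strand) had 31 and 29 called loci at 60 min, against 0 and 0 at 0 min (at least 10.0-fold, limma adjusted p = 6.60e-06). At 30 min, calls overlapped 15 and 11 of its loci. The 60 min ssRNase sets, which the test did not use, had 8 and 6 called loci in the chromosome 27 region, 13 and 15 in the chromosome 10 region and 11 and 11 in the chromosome 17 region, with none at 0 min in any of the 3. As these regions had no dsRNase call at 0 min, only sites naming ssRNase alone could have counted there.

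The other 3 regions of this kind had 24 to 28 called loci per 60 min set. They were chr2:12583419-12588209 on the minus strand with 28 and 24, chr2:18161317-18166065 on the minus strand with 27 and 24, and chr22:14142603-14149788 on the minus strand with 25 and 25. All 3 had 0 and 0 at 0 min and the same limma adjusted p, 7.06e-06. At 30 min they had 21 and 22, 26 and 27, and 20 and 13 loci overlapped by calls.

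Among regions already called in both 0 min sets, the fitted rises were smaller. At similar 60 min counts this follows from the grouping and the prior, since calls at 0 min lower the fitted change. The region chr1:15356977-15361154 (minus strand) had 23 and 27 called loci at 60 min, against 1 and 2 at 0 min. The times were far apart and 20 of its 27 loci were gained (log2 change 3.92 ± 0.27 SE, limma adjusted p = 7.63e-06). The region chr5:13944975-13951321 (plus strand) had 37 and 39 called loci at 60 min, against 3 and 2 at 0 min, with 29 of 44 loci gained (log2 change 3.76 ± 0.24 SE, limma adjusted p = 7.06e-06). Sites covered 35.8% of its length at 60 min, against 1.12% at 0 min.

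The remaining 4 of these regions had 15 to 24 called loci per 60 min set, against 1 to 3 per 0 min set. The region chr18:4499022-4502005 (plus strand) had 20 and 20 at 60 min, against 1 and 1 at 0 min, and chr26:7312547-7316204 (plus strand) had 19 and 20, against 1 and 1. The region chr5:10883768-10887365 (plus strand) had 15 and 17 at 60 min, against 1 and 1 at 0 min, and 30 min calls overlapped 10 and 2 of its loci. The region chr1:23803262-23807112 (minus strand) had 24 and 23 at 60 min, against 1 and 3 at 0 min (log2 change 3.60 ± 0.30 SE, limma adjusted p = 1.26e-05). Its call was lost without scaling (adjusted p = 0.0655).

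Of the 6 largest falls to no call, the first 2 lay on chromosome 15. As for rises from no call, the p-values are a description, since these regions passed the minimum only through 0 min calls. The region chr15:16032806-16036181 on the plus strand had 0 and 0 called loci at 60 min, against 19 and 17 at 0 min (at least 6.0-fold lower, limma adjusted p = 9.87e-06). The region chr15:15962640-15966015 on the minus strand had 0 and 0 at 60 min, against 17 and 20 at 0 min (at least 6.17-fold lower, limma adjusted p = 1.07e-05). Both span 3376 nt, and 14 sites matched between them in relative position and width within 2 nt, of 21 and 22 sites compared. They match in opposite orientation, so reads could be shared, and they do not count as 2 separate falls.

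Of the other falls to no call, chr1:26674254-26677451 (plus strand) had 0 and 0 called loci at 60 min, against 14 and 13 at 0 min (at least 4.5-fold lower, limma adjusted p = 1.72e-05). Calls of the 30 min sets overlapped 7 and 9 of its loci. The region chr26:9669102-9670466 (minus strand) had 0 and 0 at 60 min, against 12 and 14 at 0 min, where sites covered 56.3% of its 1365 nt. At 30 min, calls overlapped 4 and 0 of its loci, so the 2 sets disagreed on these loci. The region chr20:3868747-3870679 (plus strand) had 0 and 0 at 60 min, against 11 and 10 at 0 min, and chr13:8306664-8308950 (minus strand) had 0 and 0, against 11 and 12. At 30 min the chromosome 20 region had 9 and 6 called loci and the chromosome 13 region 1 and 2. No ssRNase call at 60 min overlapped a locus in any of these 6 regions, and 1 to 4 loci per set were overlapped at 0 min. With no dsRNase call at 60 min, only sites naming ssRNase alone could have counted at that time.

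Regions that kept some calls fell to 1 to 4 called loci per set. The region chr23:5411874-5414811 (plus strand) had 1 and 1 called loci at 60 min, against 18 and 12 at 0 min (log2 change -3.29 ± 0.33 SE, limma adjusted p = 2.57e-05). The region chr25:3754280-3757761 (plus strand) had 1 and 1 at 60 min, against 14 and 15 at 0 min (log2 change -3.27 ± 0.32 SE, limma adjusted p = 2.53e-05). In both, the times were far apart. At 30 min, calls overlapped 6 and 3 loci of the first region and 3 and 2 of the second.

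The region chr15:7733642-7737363 (plus strand) had 3 and 1 called loci at 60 min, against 23 and 18 at 0 min, and its call was lost without scaling (adjusted p = 0.0775). The region chr26:5134686-5140324 (minus strand) was the longest of these falls, at 5639 nt, with 4 and 2 called loci at 60 min, against 26 and 27 at 0 min, and 14 and 14 at 30 min. The region chr17:14465081-14467140 (minus strand) had 1 and 1 at 60 min, against 14 and 11 at 0 min. The region chr21:6479421-6481972 (minus strand) had 1 and 2 at 60 min, against 15 and 16 at 0 min, and 6 of its sites matched those of chr21:6518361-6519930 on the same strand, so reads could be shared.

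**Figure D5:**
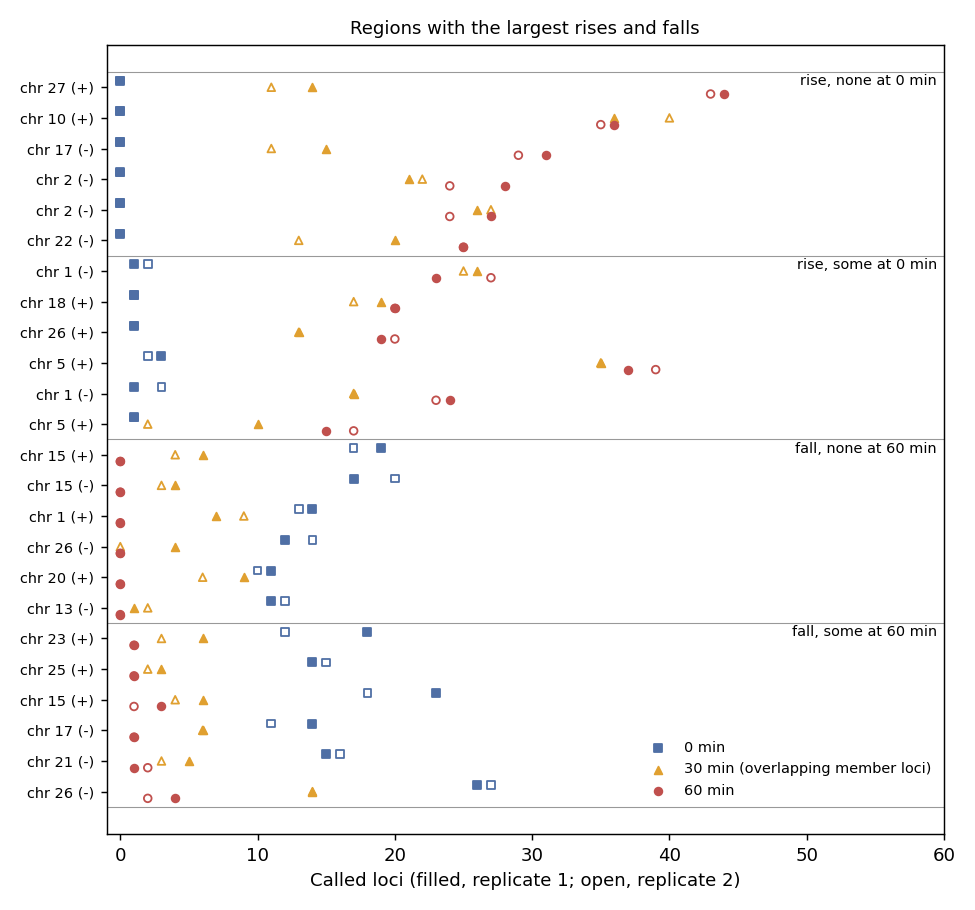
Called loci (horizontal) in each dsRNase set of 0, 30 and 60 min for the 24 regions with the largest fitted rises and falls (rows), filled for replicate 1 and open for replicate 2. The 30 min values count loci, built from 0 and 60 min sites, that a 30 min call overlapped. In the upper 12 rows the 60 min sets reach 15 to 44 called loci and the 0 min sets 0 to 3; in the lower 12 rows the 60 min sets have 0 to 4 and the 0 min sets 10 to 27.

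The 4 regions with the most called loci did not pass the test, though each passed as a fall under at least 1 alternative and chr21:2831244-2839987 as a rise with sites of dsRNase names alone. The region chr21:2831244-2839987 (plus strand) had 57 and 58 called loci at 60 min, against 64 and 64 at 0 min, and 54 of its 66 loci were constant. Both 60 min sets were lower, yet the scaled log2 change was -0.10 ± 0.19 SE (limma adjusted p = 0.768). The region chr8:11648692-11659620 (minus strand) had 43 and 44 at 60 min, against 55 and 50 at 0 min (limma adjusted p = 0.895). The region chr21:4967398-4976371 (minus strand) had 34 and 34, against 44 and 62 (limma adjusted p = 0.123). The region chr12:14137394-14145095 (plus strand) lay at the threshold, with 36 and 27 called loci at 60 min, against 45 and 53 at 0 min (log2 change -0.59 ± 0.20 SE, limma adjusted p = 0.0503), and 31 of its sites matched a second region of chromosome 12 at 14230846 to 14238082.

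Among regions not past the test that were called in every set, the most gained plus lost loci were in scaffold_37 from 42110 to 46667, on the minus strand. The region chr1:2213735-2218292, also on the minus strand, was 1 of 7 regions tied at the next number, 7 loci, among them the region of chromosome 12 just described, and was taken by its lower start coordinate. The scaffold region had 21 and 17 called loci at 60 min, against 29 and 30 at 0 min, with 8 lost and 0 gained loci (limma adjusted p = 0.160). The chromosome 1 region had 21 and 18 at 60 min, against 27 and 29 at 0 min, with 7 lost and 0 gained (limma adjusted p = 0.302). Both span 4558 nt and match another region, chr1:2275110-2279667, in 30 and 25 of its sites, so they do not count as separate observations.

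The widest gained loci were several times as long as the widest lost ones. A locus of 880 nt was gained at chr24:1042409-1043288 (plus strand), in a region with 12 and 10 called loci at 60 min, against 0 and 0 at 0 min (limma adjusted p = 2.01e-05). Loci of 793 nt each were gained at chr17:9722551-9723343 (minus strand) and chr17:9737737-9738529 (plus strand), in regions that match in 5 sites and could share reads. The 3 widest lost loci measured 199, 199 and 197 nt. They lay at chr21:6480802-6481000 and chr21:6519187-6519385 on the minus strand, in the matching regions of chromosome 21 named above, and at chr7:3666017-3666213 on the plus strand. The chromosome 7 region had 0 and 1 called loci at 60 min, against 4 and 4 at 0 min (limma adjusted p = 0.00934), and its call was lost without scaling (adjusted p = 0.160) and without replicate 1 of 60 min (adjusted p = 0.0629). The region chr21:6518361-6519930, with 1 and 2 called loci at 60 min, against 9 and 10 at 0 min (limma adjusted p = 0.00112), also lost its call without scaling (adjusted p = 0.0530).

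Matching copies were a small part of the changed regions. Of the tested regions 440 matched another region in at least 5 sites, among them 46 of the 875 with more called loci and 56 of the 509 with fewer. With these regions left out, 832 had more and 459 fewer of 4450 tested.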

How the data were processed

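Per the submitters' processing notes, reads were trimmed with cutadapt 1.2.1 and aligned with TopHat2 2.0.10. These notes name mm10, a mouse build, which the 27 chromosomes and scaffolds of the lists do not match, so for the build and the peak caller's settings nothing is given in the sources used here. The names of the lists hold CSAR and a false discovery rate of 5%. The authors deposited 1 list of protein-protected sites per time, in which the calls of all sets of a time are merged. The other values the authors deposited are comma-separated call names (time, RNase, replicate, running number). The score of a site is the authors' own, of unstated scale, deposited after merging, and served only for ranks inside 1 list.

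Member sites were joined into loci at an overlap of at least 1 nt and into regions at gaps under 500 nt. Called loci per region and set, plus a prior of 0.5, were scaled per set and strand, taken to log2 and fitted in R 4.3.3 by limma 3.58.1, with eBayes following the mean, over regions with a mean of at least 2 called loci. Fitted changes understate those of regions with few called loci. A fold against no call used a floor of 3 called loci per set. On simulated data the test called none of the changed regions where few changed and a minority where many did, with no call in the wrong direction. The simulation drew each set independently and gave all loci of a region 1 shared chance of a call, which the data need not follow. Changes may thus have been missed here, but how many is unknown. How many calls in the data are false is unknown as well. Replicate numbers did not pair the samples (correlation of deviations -0.045 over 4890 regions), so no block was used. Coordinates are 1-based, so each printed start is 1 higher than in the lists.

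Named regions were, among those past the test with sets that did not overlap, the 6 with the largest fitted change of each kind (rise or fall, with no call or with calls in both sets at the lower time). To these came the 4 with the most called loci, the 3 widest gained and 3 widest lost loci, and the 2 regions not past the test with the most gained plus lost loci. The members and lists were chosen with earlier results of these data known. Alternatives tried were other scalings, priors, minimums, gaps, overlap rules, covered length, the 50% of each list with the higher scores, dsRNase names alone, all 6 dsRNase sets together, a replicate block and each set left out. Gene names, gene lists and sequences were not analysed here.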

Additional observations from a re-analysis of the deposited data

How the results depend on the processing

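Leaving out each set in turn moved the difference of calls per set (60 minus 0 min) between -6104 and -31, the difference of median widths between 2.5 and 5.5 nt and the difference of the plus-strand share between -2.31 and 7.11 percentage points. The plus-strand difference was 2.40 with all sets and turned to -2.31 without replicate 2 of 0 min. Gained loci ranged from 8131 to 12515 and lost loci from 7888 to 14505 in these fits, since 1 call then decides, and the 50% of each list with the higher scores gave 9334 lost loci. Regions with more called loci ranged from 815 to 910 and those with fewer from 451 to 571. Without scaling 526 had more. A minimum mean of 4 called loci gave 464 more and 271 fewer, no minimum 1561 and 1482, the higher-scoring 50% 1507 and 1301, and a minimum of 1 gave 832 fewer. Covered length, for which the sets of a time share merged widths, gave 1185 fewer. Rises made up 63.2% of the calls by called loci, 46.7% by covered length, 53.7% in the higher-scoring 50% and 51.3% with no minimum. The 63.2% includes the 361 rises and 86 falls of regions without a call at 1 time. Without scaling the median log2 change was -0.18, against -0.06. The replicate block gave 932 more and 623 fewer. Named regions not past the main test became falls in 17 cases, 8 of them for chr12:14137394-14145095 (adjusted p between 0.000287 and 0.0489, the block among them at 0.0479). The others were chr21:4967398-4976371 in 3 (0.0167 to 0.0371), chr8:11648692-11659620 in 2 (0.0151 and 0.0463), scaffold_37 from 42110 in 2 (0.00131 and 0.0393), chr21:2831244-2839987 without scaling (0.0367) and chr1:2213735-2218292 in the higher-scoring 50% (0.00476). Log2 changes of regions not past the main test changed sign in 7 values. For chr21:2831244-2839987 the change was 0.79 with dsRNase names alone, there past the test as a rise (adjusted p = 0.0191), and -0.23 to 0.034 with a set left out. For chr8:11648692-11659620 it was 0.21 at a gap of 200 nt, 0.45 with dsRNase names alone and -0.35 to 0.23 with a set left out. For chr1:2213735-2218292 it was 0.016 at a gap of 200 nt. The cause was not tested. The exclusion of regions with a matching copy was added after seeing the data. With unknown depth, an absent call is not evidence of unprotected RNA.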

Other observations

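Changed regions were unevenly spread over the chromosomes. The share of tested regions with more called loci at 60 min ran between 8.57% on chromosome 12 and 27.8% on chromosome 22, and the share with fewer between 6.40% on chromosome 9 and 15.2% on chromosome 25. Gained loci made up 4.82% of loci on chromosome 12 and 15.3% on chromosome 22, while lost loci varied less, between 6.79% on chromosome 8 and 10.3% on chromosome 24. No test was made, since neighbouring regions are not independent. Unplaced scaffolds held 356 loci, of which 10 were gained, 37 lost and 131 constant.

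Neighbouring tested regions on a strand tended to change alike. Among 762 pairs less than 2000 nt apart, both had more called loci at 60 min in 109, both had fewer in 29 and they went opposite ways in 1. Among 4045 pairs further apart, the numbers were 149, 49 and 130. Whether close neighbours belong to 1 transcript was not tested. By strand, 438 regions had more and 257 fewer on the plus strand, and 437 and 252 on the minus strand.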
